A study of Mus musculus with 4 samples.

Results

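The transcription factors that direct the differentiation of intestinal epithelial cells were followed across mouse colon through 9 members: Hnf4a, Hnf4g, Klf4, Klf5, Pparg, Ppara, Hes1, Atoh1 and Gfi1. They were taken by gene symbol from the count table, which holds 44788 gene rows, and all 9 members were found. RNA was sequenced from whole colon tissue of C57BL/6 mice in 4 libraries, 1 per group. The untreated groups (day 0) were wild type (WT) or labelled Card9-/-, and the treated groups of the same labels were collected on day 100. There is no untreated library of day 100, so in every comparison below AOM/DSS cannot be told apart from the time of collection. Treatment was an injection of 10 mg/kg azoxymethane (AOM), a carcinogen, on day 1, followed by 3 cycles of 7 days of 2% dextran sulfate sodium (DSS), which injures the colonic epithelium, in the drinking water. AOM followed by DSS is a standard mouse model of colitis-associated colon cancer, and Card9 is an adaptor protein of myeloid cells that relays signals from fungal receptors. Whether each library is from a single mouse or a pool is not stated in the labels, nor is it stated whether tumour or the tissue around it was taken.

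Absorptive and secretory cells of the colon arise from the same crypt stem cells. Notch signalling induces Hes1, a repressor of Atoh1, and thereby favours the absorptive fate. Atoh1 starts the secretory programme and Gfi1 acts downstream of it in goblet cells. HNF4A and HNF4G are nuclear receptors that maintain brush border and lipid transport genes in absorptive cells. KLF4 is a zinc finger factor of differentiated surface and goblet cells, while KLF5 is a relative that is typical of proliferating crypt cells. PPARA and PPARG are lipid-sensing nuclear receptors that pair with RXR, and PPARG is also the master regulator of fat cells.

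Of the 9 members, 6 were lower in the AOM/DSS library labelled knockout than in each of the other 3 libraries by the size rule given below. Among all tested genes, 15.9% were called lower there than in its untreated counterpart and 12.4% lower than in WT AOM/DSS. The share called lower than in untreated WT was not computed. For 5 of these 6, RefSeq promoter windows were at hand, and they are shown because these genes were low in the same library. Each is the 250 bases before an annotated start, 5′ to 3′ on the gene's strand (build GRCm38.p6). Capitals mark matches, on either strand, to the motifs that were searched. The Hnf4a windows are chr2:163506607-163506856 and chr2:163546905-163547154 (plus strand). The Klf4 window is chr4:55532476-55532725 (minus), that of Ppara chr15:85735526-85735775 (plus), the first of 3 for Pparg chr6:115360894-115361143 (plus), and that of Atoh1 chr6:64728875-64729124 (plus).
Hnf4a, start 1: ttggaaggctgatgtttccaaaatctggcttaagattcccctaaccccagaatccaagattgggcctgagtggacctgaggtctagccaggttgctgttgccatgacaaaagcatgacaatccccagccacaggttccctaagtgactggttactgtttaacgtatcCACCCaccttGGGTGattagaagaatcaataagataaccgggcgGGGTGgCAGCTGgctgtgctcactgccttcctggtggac
Hnf4a, start 2: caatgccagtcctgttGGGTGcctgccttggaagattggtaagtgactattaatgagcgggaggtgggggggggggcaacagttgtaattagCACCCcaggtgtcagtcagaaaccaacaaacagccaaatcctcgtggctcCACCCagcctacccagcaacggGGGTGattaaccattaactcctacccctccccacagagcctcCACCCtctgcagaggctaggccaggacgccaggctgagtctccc
Klf4: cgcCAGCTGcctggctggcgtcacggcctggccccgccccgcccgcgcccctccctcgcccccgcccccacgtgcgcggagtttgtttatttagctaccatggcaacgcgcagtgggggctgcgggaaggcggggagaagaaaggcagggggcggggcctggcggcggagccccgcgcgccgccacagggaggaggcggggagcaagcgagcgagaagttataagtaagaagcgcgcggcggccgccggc
Ppara: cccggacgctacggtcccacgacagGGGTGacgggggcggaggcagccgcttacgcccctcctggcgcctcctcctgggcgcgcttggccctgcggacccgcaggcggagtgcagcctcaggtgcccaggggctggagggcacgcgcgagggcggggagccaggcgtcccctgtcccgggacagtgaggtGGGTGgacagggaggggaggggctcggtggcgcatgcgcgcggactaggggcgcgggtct
Pparg, start 1: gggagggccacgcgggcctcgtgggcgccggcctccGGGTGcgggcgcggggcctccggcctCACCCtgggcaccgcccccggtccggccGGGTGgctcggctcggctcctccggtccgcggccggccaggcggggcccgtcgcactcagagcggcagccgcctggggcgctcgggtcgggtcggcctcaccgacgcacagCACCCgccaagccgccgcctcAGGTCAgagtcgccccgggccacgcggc
Atoh1: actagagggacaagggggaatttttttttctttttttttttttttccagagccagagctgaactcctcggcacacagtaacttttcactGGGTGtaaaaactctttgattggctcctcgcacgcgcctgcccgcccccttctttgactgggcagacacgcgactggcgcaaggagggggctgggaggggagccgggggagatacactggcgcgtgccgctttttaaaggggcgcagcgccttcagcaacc

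The motifs searched were a KLF box (CACCC), an HNF4-type site (CAAAGTCCA), a nuclear receptor half-site (AGGTCA) and an E-box (CAGCTG). Among 32851 RefSeq promoter windows of the same length, 52.0% held a KLF box, 0.384% the HNF4-type site, 14.02% the nuclear receptor half-site and 13.0% the E-box. The second Hnf4a window held 5 KLF boxes, at 234, 158, 108, 86 and 44 bases before the start. The first Hnf4a window held 3 KLF boxes, at 83, 73 and 39 bases, and the E-box at 33 bases. The Klf4 window held the E-box at 247 bases. Ppara had KLF boxes at 225 and 60 bases, and Atoh1 had 1 at 161 bases. The first Pparg window held 4 KLF boxes and a nuclear receptor half-site at 28 bases. The other Pparg windows, not printed here, held less. The second had a KLF box at 116 bases and a half-site at 9 bases, and the third had none of the motifs. No HNF4-type site stood in any of these windows. The GC content was 74.0% for Klf4, 76.4% for Ppara, 82.4% for this Pparg window, 55.6% for Atoh1, and 51.2% and 57.6% for the Hnf4a windows, against a median of 52.4% over all windows. A match of these letters is a description and not a binding site.

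Some facts about the libraries touch all results. Card9 had 44 counts in untreated WT and 69 in the untreated library labelled knockout, then 116 and 245 after AOM/DSS, so its counts were higher in the libraries labelled knockout. The deleted part of the gene is not stated in the sources used here, so gene counts cannot check the label, and the samples are named by their labels only. The AOM/DSS library labelled knockout stands apart: across 16383 genes its log2 levels correlated at 0.827 to 0.855 with the others, which correlated at 0.942 to 0.954 among themselves. Epithelium was present throughout: all 12 pan-epithelial genes (Epcam, keratins, claudins and others) were detected in every library, with a summed level of 10106 to 13594 CPM (counts scaled to a common library size). These genes mark epithelium in general, so they cannot check the tissue label. In the AOM/DSS library labelled knockout, smooth muscle genes were low (summed CPM 1201, against 6295 to 8488 elsewhere), stem cell genes were high (804 against 75.5 to 139) and Paneth cell genes were high (2684 against 21.6 to 159). Lyz1 alone made up 1461 CPM of that Paneth cell sum. Of 7 Paneth cell genes, 6 were called higher there than in the untreated labelled knockout and 1, Ang4, lower (61.8 against 127 CPM). In bulk tissue, fewer cells of a type and less RNA per cell cannot be told apart.

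Levels are CPM scaled with TMM factors, and libraries held 23022885 to 27706567 counts. With 1 library per group there is no spread between replicates and hence no test for a pair. A gene was instead called by a rule of size: CPM + 1 had to differ by at least 2-fold, and whichever library was higher needed 50 or more counts. Ratios of CPM carry exact 95% Clopper-Pearson counting intervals, which cover counting error only. All 9 members passed the count minimum in every pair.

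Between the AOM/DSS and untreated libraries of WT mice, 0 of the 9 factors were called in either direction, against backgrounds of 4.08% of 15356 genes called higher and 3.88% called lower. Between those labelled knockout, 6 were called lower (Hnf4a, Hnf4g, Klf4, Pparg, Ppara and Atoh1) and 0 higher, where 15.9% of 15900 genes were called lower and 14.1% higher. The untreated library labelled knockout had 1 factor called lower than untreated WT, Pparg, and 0 higher, where 3.37% of 15352 genes were called lower and 4.46% higher. Of the AOM/DSS libraries, the one labelled knockout had the same 6 factors called lower than WT and 0 higher, beside 12.4% of 15779 genes lower and 11.9% higher. Both counts of 6 use the library that stands apart. Set against untreated WT in place of its own control, this library had the same 6 called lower. The share of all genes called lower in that comparison was not computed, so this count has no background beside it. When libraries were scaled on pan-epithelial genes, each count of 6 became 3. Klf4, Ppara and Atoh1 were then called lower than untreated, beside 10.69% of all tested genes. Pparg, Ppara and Atoh1 were called lower than WT AOM/DSS, beside 7.998% of all tested genes.

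The median log2 ratio of the 9 factors was -0.17 for AOM/DSS over untreated in WT, where the median of all genes was 0.02. It was -1.16 in the labelled knockout, against 0.03 for all genes, and all 9 ratios were negative. For labelled knockout over WT the median was 0.01 untreated and -1.30 after AOM/DSS, against -0.01 and 0.03. The pairs share libraries, so these medians are not independent of each other.

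**Figure D1:**
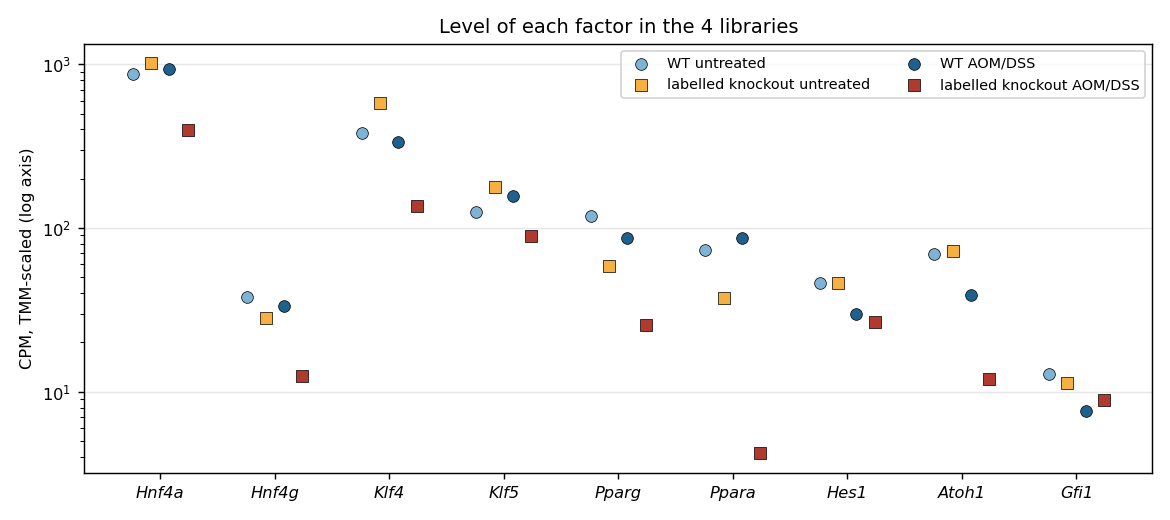
Level of each of the 9 factors (TMM-scaled CPM, log axis) in the 4 libraries, 1 point per library. For 7 factors the AOM/DSS library labelled knockout is the lowest point by at least 1.4-fold, for Hes1 it is lowest by 1.12-fold under this scaling (not under library totals or pan-epithelial scaling), and for Gfi1 the WT AOM/DSS library is lowest.

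Hnf4a, whose gene spans chr2:163506808-163572910 on the plus strand, was the most abundant member per length of transcript. It stood at 180 CPM per kb in untreated WT, 209 in the untreated labelled knockout, 195 in WT AOM/DSS and 82.1 in the AOM/DSS labelled knockout. As CPM without the length these levels were 871, 1011, 940 and 397. The first 3 libraries lay within a narrow band, and the last was 2.55-fold (2.49 to 2.61) below its untreated counterpart and 2.37-fold below WT AOM/DSS. In WT the AOM/DSS library was 1.08-fold (1.06 to 1.10) above the untreated one, a direction that flips (log2 -0.17) when libraries are scaled on pan-epithelial genes.

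Hnf4g (chr3:3508030-3658052, plus strand), the paralogue with overlapping targets, was far less abundant. Its CPM was 37.7 in untreated WT, 28.3 in the untreated labelled knockout, 33.5 in WT AOM/DSS and 12.4 in the AOM/DSS labelled knockout. The last library was again the low one, by 2.27-fold (2.00 to 2.59) against its untreated counterpart and by 2.69-fold against WT AOM/DSS. Hnf4g was also 1.33-fold lower in the untreated labelled knockout than in untreated WT, while Hnf4a was 1.16-fold higher there. Counts per kb of Hnf4a exceeded those of Hnf4g by 12.6-fold in untreated WT, 19.5-fold in the untreated labelled knockout, 15.3-fold in WT AOM/DSS and 17.4-fold in the AOM/DSS labelled knockout, so the excess of Hnf4a was present in all 4 libraries.

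Known HNF4 targets of lipid transport and the brush border were listed, and 13 of 15 could be tested in WT. There 7 were called higher after AOM/DSS and 0 lower (median log2 ratio 1.45). Among the 7, Apoa1 (7 and 1309 counts), Apoa4 (0 and 88), Mttp (38 and 380) and Treh (3 and 63) met the count minimum only in the AOM/DSS library. The filter thus set the direction of these genes, and the median includes them. In the labelled knockout the list had 1 of 10 higher and 7 lower (median -1.87). Between the AOM/DSS libraries 13 of 13 were called lower in the labelled knockout (median -2.09), or 10 of them when library totals or pan-epithelial genes set the scale. Apoa1, Apoa4 and Treh met the count minimum in WT AOM/DSS alone, so the filter also set their direction in this pair. Untreated, 1 of 10 was higher in the labelled knockout (median 0.14, or -0.06 with pan-epithelial scaling).

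Apob, the scaffold of lipoprotein particles, had a CPM of 199 in untreated WT, 147 in the untreated labelled knockout, 548 in WT AOM/DSS and 34.9 in the AOM/DSS labelled knockout. It was thus 2.75-fold (2.66 to 2.84) higher after AOM/DSS in WT and 4.20-fold (3.92 to 4.51) lower in the labelled knockout. Apoa1, an apolipoprotein typical of small intestine, was near 0 in 3 libraries (0.28, 0.41 and 0.35 CPM) and at 60.0 CPM in WT AOM/DSS. Fabp2, an intestinal fatty acid carrier, was at 188, 178 and 144 CPM in the first 3 libraries and at 0.44 in the AOM/DSS labelled knockout, a 403-fold (240 to 738) difference from its untreated counterpart. Vil1, the microvillus protein villin, differed far less, at 889, 943 and 1000 CPM against 482. The targets called higher in WT AOM/DSS were accompanied by a Hnf4a level within 1.08-fold of untreated WT.

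Klf4 (chr4:55527143-55532466, minus strand) was the second most abundant member per kb in all 4 libraries. Its CPM was 381 in untreated WT, 581 in the untreated labelled knockout, 337 in WT AOM/DSS and 137 in the AOM/DSS labelled knockout. The untreated labelled knockout was the highest, 1.53-fold above untreated WT, and the AOM/DSS library of the same label was the lowest, 4.25-fold (4.10 to 4.40) below it. In WT the 2 libraries differed by 1.13-fold.

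Klf5 (chr14:99298691-99315036, plus strand) ranged 1.98-fold from its lowest to its highest library. Its CPM was 126 in untreated WT, 177 in the untreated labelled knockout, 156 in WT AOM/DSS and 89.8 in the AOM/DSS labelled knockout. The order of libraries was that of Hnf4a, and the treated labelled knockout was 1.98-fold (1.88 to 2.07) below its untreated counterpart, just outside the size rule on the log2(CPM + 1) scale (-0.97). In WT the AOM/DSS library was 1.24-fold (1.18 to 1.30) higher.

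The balance of the KLF pair is free of library scaling, since both counts come from 1 library; this ratio and those below were chosen after values were seen. Klf4 counts were 3.03 times (2.91 to 3.15) those of Klf5 in untreated WT and 3.28 times (3.16 to 3.40) in the untreated labelled knockout. After AOM/DSS the ratio was 2.16 (2.08 to 2.26) in WT and 1.52 (1.45 to 1.60) in the labelled knockout. Both treated libraries therefore held less Klf4 per Klf5 than both untreated ones, and the counting intervals did not overlap.

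Few of the other KLF family genes were called. Of 11 tested of 15 listed, 0 were called in the labelled knockout after AOM/DSS, or 1 higher with library totals or pan-epithelial scaling. In WT, Klf2, an endothelial and lymphocyte factor, was called higher at 10.9 against 4.76 CPM, and Klf15, a metabolic regulator, was called lower at 4.72 against 10.5 CPM. Untreated, the same pair of genes was called in the labelled knockout, Klf2 at 10.6 CPM and Klf15 at 3.96 CPM. Both calls of Klf2 are lost when library totals or pan-epithelial genes set the scale. Klf12 was called higher in the AOM/DSS labelled knockout than in WT AOM/DSS, at 19.2 against 6.79 CPM.

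**Figure D2:**
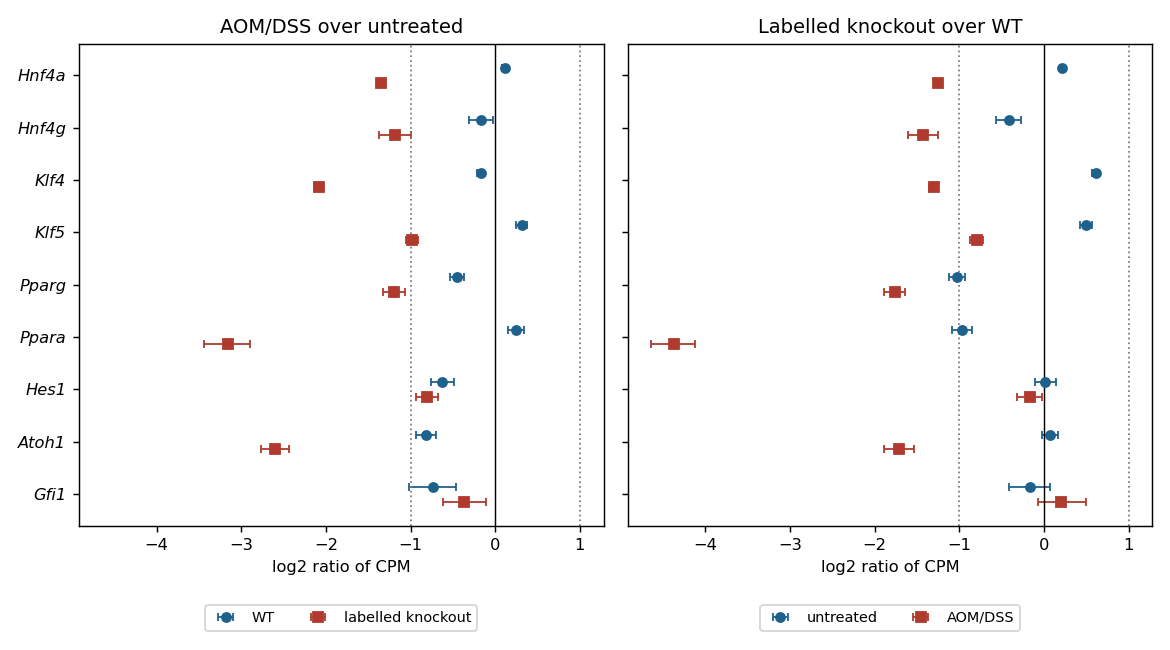
Log2 ratios of CPM for the 9 factors with 95% counting intervals, for AOM/DSS over untreated (left) and labelled knockout over WT (right); dotted lines mark 2-fold and each point compares 2 libraries. In WT all points lie within 2-fold of 0, while in the labelled knockout 6 factors lie past 2-fold and Ppara is 8.95-fold lower; the small WT rises of Hnf4a and Ppara turn negative under pan-epithelial scaling.

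Ppara (chr15:85734983-85802819, plus strand), which drives fatty acid oxidation and ketone synthesis, varied most among the 9 members. It had 1850 counts in untreated WT, 816 in the untreated labelled knockout, 1894 in WT AOM/DSS and 133 in the AOM/DSS labelled knockout, which is 73.4, 37.6, 86.8 and 4.20 CPM. Both libraries labelled knockout lay below both WT libraries. The treated labelled knockout was 8.95-fold (7.44 to 10.8) below its untreated counterpart and 20.7-fold (17.3 to 24.9) below WT AOM/DSS. The untreated difference between labels was 1.95-fold, just outside the size rule (log2 -0.95) and inside it when library totals or pan-epithelial genes set the scale. In WT the treated library was 1.18-fold (1.11 to 1.26) higher, and with pan-epithelial scaling slightly lower (log2 -0.03).

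Pparg (chr6:115360951-115490399, plus strand), which in the colon is expressed by surface epithelium as well as by fat cells, had the same order of labels. Its CPM was 119 in untreated WT, 58.5 in the untreated labelled knockout, 87.0 in WT AOM/DSS and 25.6 in the AOM/DSS labelled knockout. The labelled knockout was 2.03-fold (1.90 to 2.17) lower untreated, just inside the size rule (log2 -1.01), and 3.39-fold lower after AOM/DSS. The untreated call is lost with a pseudocount of 5 CPM. AOM/DSS was lower than untreated by 1.37-fold in WT and by 2.28-fold (2.09 to 2.50) in the labelled knockout.

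Fat cell genes were set beside Pparg. The 10 listed markers summed to 557 CPM in untreated WT, 67.5 in the untreated labelled knockout, 254 in WT AOM/DSS and 34.6 in the AOM/DSS labelled knockout, the same order of libraries as Pparg, and none was at 0 in any library. Adipoq, the fat cell hormone adiponectin, was at 54.8, 0.51, 17.1 and 0.95 CPM. Of the 10 markers, 9 were called lower in the untreated labelled knockout and 6 were called lower in WT after AOM/DSS. In the labelled knockout, where Pparg was called lower after AOM/DSS, 2 of 6 tested markers were called lower and 1, the adipokine Cfd, higher (4.14 against 1.56 CPM). Their part in the Pparg differences was not tested. Relative to the mean of the pan-epithelial genes, Pparg was 1.20 lower on the log2 scale in the untreated labelled knockout and Ppara was 1.14 lower.

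Within each library, Ppara counts were 0.617 (0.582 to 0.654) of those of Pparg in untreated WT and 0.642 (0.587 to 0.701) in the untreated labelled knockout, which overlap. The ratio was 0.998 (0.936 to 1.06) in WT AOM/DSS and 0.164 (0.135 to 0.197) in the AOM/DSS labelled knockout, so the treated libraries lay on opposite sides of the untreated ones. Against Ppard, the third and most widely expressed PPAR, Ppara counts stood at 0.316 in untreated WT, 0.127 in the untreated labelled knockout, 0.489 in WT AOM/DSS and 0.0539 in the AOM/DSS labelled knockout.

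Among the partners and cofactors of nuclear receptors, 10 of 12 were tested and 4 were called lower in the labelled knockout after AOM/DSS: Rxra, Ppard, Ppargc1b and Esrra. The same 4 were called lower than in WT AOM/DSS, and 0 were called in the other 2 pairs. With library totals or pan-epithelial scaling each count of 4 became 3. Rxra, the obligate dimer partner of the PPARs, was at 176 CPM in untreated WT, 151 in the untreated labelled knockout, 186 in WT AOM/DSS and 65.0 in the AOM/DSS labelled knockout. Ppard was at 232, 296, 177 and 77.9 CPM. Ppargc1b, a coactivator of mitochondrial genes, was at 114, 128, 87.8 and 18.3 CPM, while its relative Ppargc1a stayed between 36.3 and 48.1 CPM.

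Of 18 listed PPAR targets, 17 were tested in each pair. In WT 2 were called higher after AOM/DSS and 1 lower (median 0.32), and in the labelled knockout 2 higher and 8 lower (median -0.99). Untreated, the labelled knockout had 1 higher and 6 lower (median -0.28), and after AOM/DSS 0 higher and 14 lower than WT (median -1.37). With library totals or pan-epithelial scaling the 8 became 3 under both, and the 14 became 10 and 8.

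Cyp4b1, a fatty acid hydroxylase, followed the order of Pparg, at 51.1 CPM in untreated WT, 9.62 in the untreated labelled knockout, 27.6 in WT AOM/DSS and 0.73 in the AOM/DSS labelled knockout. Pdk4, which spares glucose during fat oxidation, did not: it was at 11.4, 5.06, 17.2 and 13.9 CPM and was called higher after AOM/DSS in the labelled knockout by 2.75-fold (2.23 to 3.42). Plin2, a lipid droplet coat protein, was at 66.1, 136, 122 and 135 CPM, lowest in untreated WT. Creb3l3, a liver and gut factor of lipid metabolism, stood out in WT AOM/DSS at 33.3 CPM, against 2.18 in untreated WT, 1.29 in the untreated labelled knockout and 2.24 in the AOM/DSS labelled knockout.

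Hes1 (chr16:30064384-30067796, plus strand), the repressor downstream of Notch, differed little by label. Its CPM was 46.0 in untreated WT, 46.4 in the untreated labelled knockout, 29.9 in WT AOM/DSS and 26.5 in the AOM/DSS labelled knockout. Both treated libraries lay below both untreated ones, by 1.54-fold (1.40 to 1.70) in WT and 1.75-fold (1.59 to 1.92) in the labelled knockout. The treated labelled knockout was 1.12-fold below WT AOM/DSS, a direction that flips with library totals (log2 0.10) and with pan-epithelial scaling (0.25).

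Atoh1 (chr6:64729125-64731245, plus strand), the secretory determinant, was also lower in both treated libraries. Its CPM was 69.0 in untreated WT, 72.4 in the untreated labelled knockout, 39.2 in WT AOM/DSS and 11.9 in the AOM/DSS labelled knockout. The untreated libraries differed by 1.05-fold. The treated library was lower by 1.76-fold (1.62 to 1.91) in WT and by 6.07-fold (5.42 to 6.81) in the labelled knockout, and between the treated libraries the difference was 3.29-fold (2.91 to 3.72). Under pan-epithelial scaling the WT difference also passed the size rule.

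Gfi1 (chr5:107716657-107726036, minus strand), which acts below Atoh1 and is also expressed by granulocyte precursors, was the least abundant member per kb except in the AOM/DSS labelled knockout. It had 322, 247, 167 and 280 counts, or 12.8 CPM in untreated WT, 11.4 in the untreated labelled knockout, 7.66 in WT AOM/DSS and 8.84 in the AOM/DSS labelled knockout. The WT difference of 1.67-fold (1.38 to 2.02) lower after AOM/DSS was larger than that in the labelled knockout, 1.29-fold (1.08 to 1.53). Between labels the interval included 1 both untreated (1.12-fold lower, 0.949 to 1.33) and after AOM/DSS (1.15-fold higher, 0.950 to 1.41). Gfi1 shares 101 exon bases (3.17% of its exons) with the antisense gene A430072P03Rik, whose reads cannot be told apart without strand. Neutrophil genes, which mark a second possible source of Gfi1, summed to 3.85 CPM in untreated WT, 61.3 in the untreated labelled knockout, 390 in WT AOM/DSS and 238 in the AOM/DSS labelled knockout. Most of the sum in the untreated labelled knockout was Ly6g alone, at 54.7 CPM against 0.04 in untreated WT. S100a8 was at 0.09 CPM and S100a9 at 0.60 CPM in that library. The part of neutrophil genes in the Gfi1 levels was not tested.

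Atoh1 counts were 1.50 times (1.39 to 1.62) those of Hes1 in untreated WT, 1.56 times (1.44 to 1.69) in the untreated labelled knockout and 1.31 times (1.18 to 1.46) in WT AOM/DSS. In the AOM/DSS labelled knockout the ratio was 0.449 (0.397 to 0.508), the only library in which Hes1 counts exceeded those of Atoh1. Atoh1 counts were 5.40, 6.37 and 5.12 times those of Gfi1 in the first 3 libraries and 1.35 times (1.15 to 1.58) in the AOM/DSS labelled knockout. Between the WT libraries the intervals of this second ratio overlapped (4.79 to 6.10 untreated, 4.33 to 6.08 treated).

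**Figure D3:**
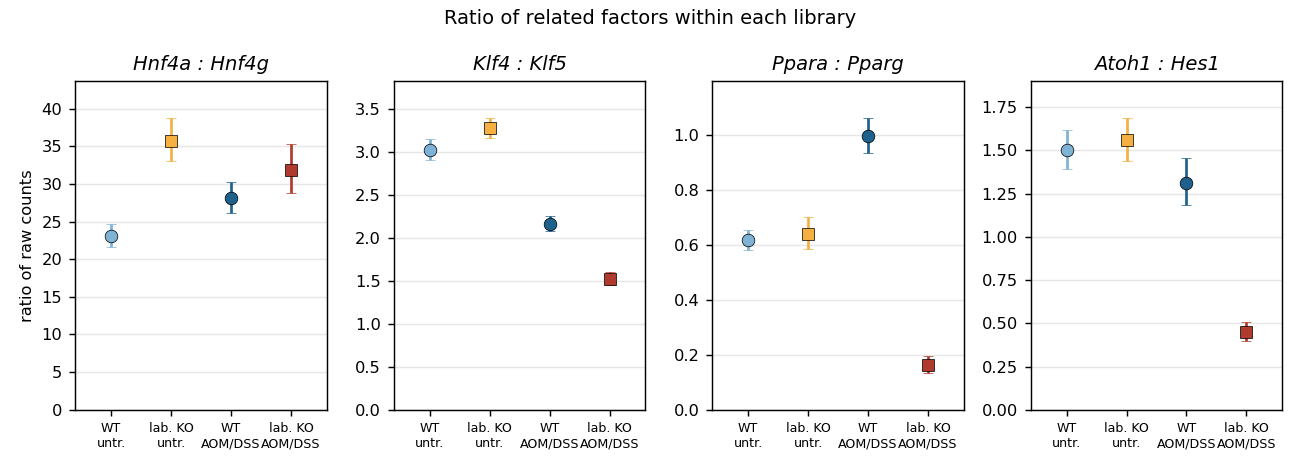
Ratios of raw counts of related factors within each library (linear axes from 0), with 95% counting intervals. Klf4 per Klf5 is lower in both AOM/DSS libraries (2.16 and 1.52) than in both untreated ones (3.03 and 3.28), while Ppara per Pparg and Atoh1 per Hes1 are far lower in the AOM/DSS labelled knockout (0.164 and 0.449) than in any other library.

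Notch pathway genes upstream of Hes1 were set beside it as ligands and as receptors with core components. Of 4 tested ligands of 5 listed, 0 were called in 3 pairs, and Dll1, a ligand of secretory cells, was called lower in the AOM/DSS labelled knockout than in WT AOM/DSS (9.09 against 20.4 CPM), a call lost with library totals or pan-epithelial scaling. Of 14 receptors and core components, 0 were called in WT and 0 in the untreated pair. In the labelled knockout 2 were called higher after AOM/DSS, Adam10, a protease that cleaves Notch receptors, and Notch4. Over all genes of that pair 14.1% were called higher, so this count does not set the list apart. The number was 4 with library totals or pan-epithelial scaling. The number of all genes called higher went from 2245 of 15900 to 3274 with library totals and 3535 with pan-epithelial scaling. Notch1, the main receptor of crypt cells, was at 84.3 CPM in untreated WT, 90.6 in the untreated labelled knockout, 61.4 in WT AOM/DSS and 153 in the AOM/DSS labelled knockout, and was called higher there than in WT AOM/DSS by 2.49-fold (2.34 to 2.65). Rbpj, the DNA-binding partner of Notch, stayed between 15.1 and 23.1 CPM, and the ligand Dll4 between 26.8 and 36.8 CPM.

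Of 10 other listed HES and HEY genes and Notch targets, 6 were tested. Heyl, a vascular Notch target, was like Hes1 lower in both treated libraries and was called lower after AOM/DSS in both labels, at 2.20 against 6.98 CPM in WT and 2.18 against 7.18 CPM in the labelled knockout. Hes6, an inhibitor of Hes1 activity, was highest in the AOM/DSS labelled knockout, at 23.1 CPM in untreated WT, 50.5 in the untreated labelled knockout, 30.7 in WT AOM/DSS and 96.5 in the AOM/DSS labelled knockout. It was called higher in the labelled knockout both untreated, a call lost with pan-epithelial scaling, and after AOM/DSS by 3.14-fold (2.89 to 3.42). Dtx1 and Hes2 were called lower in the AOM/DSS labelled knockout than in WT AOM/DSS.

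Of 18 listed secretory factors 12 were tested in WT and 0 were called. In the labelled knockout, 5 of 11 were called lower after AOM/DSS (Spdef, Creb3l1, Creb3l4, Foxa2 and Neurod1) and 2 higher (Sox4 and Bhlha15). With pan-epithelial scaling these counts were 3 and 3. Spdef, the goblet cell factor below Atoh1, was at 129 CPM in untreated WT, 77.8 in the untreated labelled knockout, 125 in WT AOM/DSS and 27.9 in the AOM/DSS labelled knockout. In WT it differed by 1.03-fold while Atoh1 was 1.76-fold lower, so Spdef counts per Atoh1 count went from 1.88 (1.77 to 1.99) to 3.20 (2.96 to 3.46). Creb3l1, a factor of the secretory apparatus, was at 205, 205, 130 and 46.1 CPM. Foxa2 was highest in the untreated labelled knockout, at 32.1 CPM against 5.99 in untreated WT, 7.70 in WT AOM/DSS and 12.2 in the AOM/DSS labelled knockout.

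The crypt factors Sox4 and Sox9 were highest in the AOM/DSS labelled knockout. Sox4 was at 26.1, 21.5 and 28.8 CPM in the first 3 libraries and at 117 in the AOM/DSS labelled knockout, 5.45-fold (4.95 to 6.02) above its untreated counterpart. Sox9 was at 43.2 CPM in untreated WT, 50.5 in the untreated labelled knockout, 29.9 in WT AOM/DSS and 85.9 in the AOM/DSS labelled knockout. Neurog3, the enteroendocrine determinant, and Gfi1b, the paralogue of Gfi1, had at most 20 and 14 counts in any library, too few for a call. Muc2, the main goblet cell mucin, was at 13360 CPM in untreated WT, 7440 in the untreated labelled knockout, 8674 in WT AOM/DSS and 905 in the AOM/DSS labelled knockout. Of 10 goblet cell genes, 6 were called lower after AOM/DSS in the labelled knockout and 0 higher, while in WT 3 were called higher and 1 lower.

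Of 20 other listed factors of intestinal epithelium, 18 were tested in WT and 0 were called there. In the labelled knockout, 9 of 19 were called lower after AOM/DSS and 2, Grhl3 and Prdm1, higher (median -0.93). Among the lower ones were Cdx1, Cdx2, Isx, Nr1h4, Nr1i2, Nr5a2, Ovol1 and Vdr, and the same 9 were called lower than in WT AOM/DSS. Cdx2, which specifies intestinal identity, was at 258 CPM in untreated WT, 143 in the untreated labelled knockout, 279 in WT AOM/DSS and 16.9 in the AOM/DSS labelled knockout, 8.50-fold (7.75 to 9.33) below its untreated counterpart. Nr5a2, a nuclear receptor of crypt cells, was at 59.0, 59.5 and 51.5 CPM, then at 2.71. Vdr, the vitamin D receptor, was at 388, 547, 310 and 53.0 CPM. Isx, a repressor of carotenoid uptake, was called lower in the labelled knockout already untreated, at 69.3 against 242 CPM.

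Elf3, an ETS factor of epithelial cells in the same list, was called in 0 pairs. It was at 420 CPM in untreated WT, 490 in the untreated labelled knockout, 652 in WT AOM/DSS and 524 in the AOM/DSS labelled knockout.

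**Figure D4:**
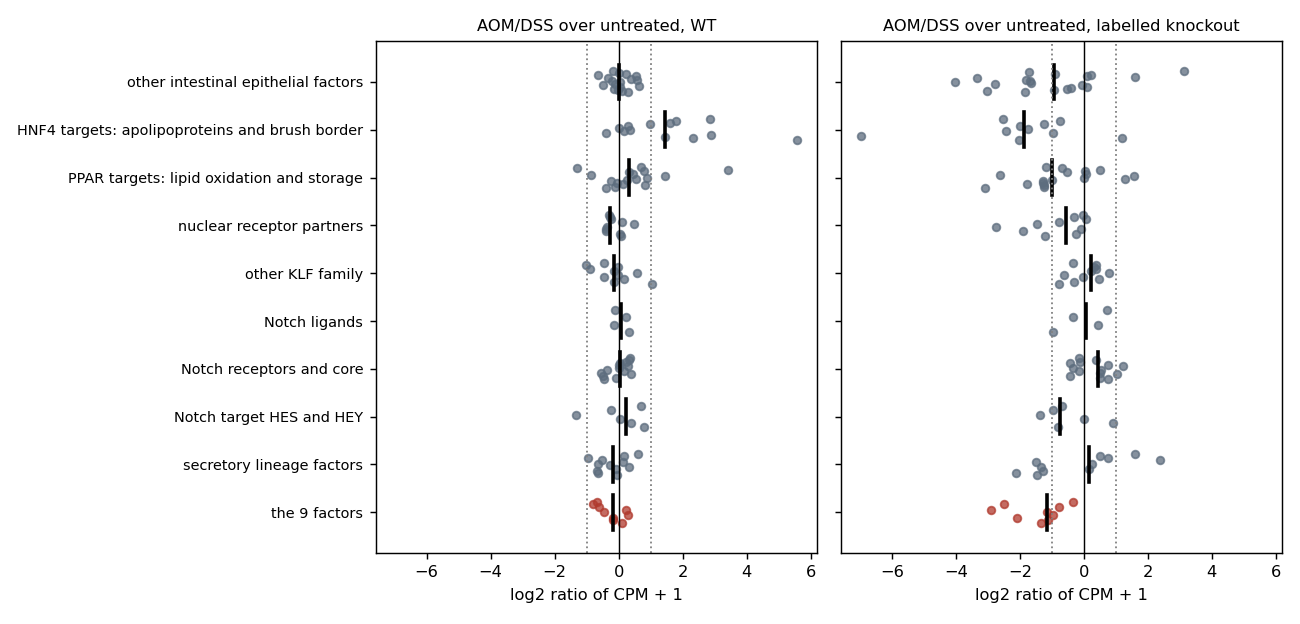
Log2 ratio of CPM + 1 for AOM/DSS over untreated, 1 point per tested gene, in WT (left) and labelled knockout (right), for the 9 factors and 9 related lists; black bars are medians and dotted lines mark 2-fold. The 9 factors have medians of -0.17 and -1.16, and the HNF4 targets lie at 1.45 in WT and -1.87 in the labelled knockout. The WT median of the HNF4 targets includes Apoa1, Apoa4, Mttp and Treh, which met the count minimum in WT only after AOM/DSS.

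The factors were also set against the pan-epithelial genes of the same library. The mean log2 level of those 12 genes differed by 0.24 in WT and -0.05 in the labelled knockout after AOM/DSS, and by 0.19 and -0.10 between labels. Relative to that mean, the log2 difference after AOM/DSS in the labelled knockout was -2.84 for Ppara, -2.45 for Atoh1, -2.03 for Klf4, -1.30 for Hnf4a, -1.11 for Pparg, -1.07 for Hnf4g, -0.92 for Klf5, -0.73 for Hes1 and -0.28 for Gfi1. In WT the same differences were -1.04 for Atoh1, -0.91 for Gfi1, -0.85 for Hes1 and -0.69 for Pparg, with the other 5 factors between -0.41 and 0.07. This reference depends on how the 12 genes are summarised. In the labelled knockout pair their mean of -0.05 includes the tight junction gene Cldn4, at 442 against 34.8 CPM, while their median was -0.37. Pan-epithelial scaling, which rests on the summed counts of the same 12 genes, gave -0.99 for Hnf4a, -0.82 for Pparg and -0.79 for Hnf4g, short of the size rule. Epcam alone was at 906, 1647, 983 and 632 CPM in the 4 libraries, so per Epcam count Hnf4a stood at 0.961 and 0.957 in the WT libraries and at 0.614 and 0.627 in those labelled knockout.

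The log2 ratio of AOM/DSS (day 100) over untreated (day 0), here called the response, was more negative in the labelled knockout than in WT for 8 of 9 factors. The difference of the responses (labelled knockout minus WT) was -3.13 for Ppara, -1.91 for Klf4, -1.71 for Atoh1, -1.46 for Hnf4a, -1.28 for Klf5, -0.96 for Hnf4g, -0.71 for Pparg and -0.18 for Hes1. For Gfi1 it was 0.34. With library totals the difference was 0.17 for Hes1, -0.36 for Pparg and -0.61 for Hnf4g, and with pan-epithelial scaling 0.44, -0.09 and -0.35, so under both it was negative for 7 of 9 factors. With 1 library per group these differences could not be tested.

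The profiles of the members over the 4 libraries were compared by the root mean square difference of centred log2(CPM + 1) values. Gfi1 and Hes1 were the closest pair (0.17), followed by Hnf4a and Hnf4g (0.22), and Gfi1 and Ppara were the farthest apart (1.59). Among 13539 other genes the nearest to Ppara was Cdx2 (0.08), followed by Bmp3 and Ces2b. The nearest to Hnf4a were Slco2a1 (0.02), Lrrfip2 and Camta2, and to Hnf4g Nell2, S100b and Plxnb3. For Klf4 they were Cnnm4, Chst4 and Gstt3, and for Klf5 Ppp3ca, Tssk4 and Spata2l. Pparg was closest to Hcn2, Asxl3 and Cdh19, Hes1 to Aacs, Zbtb3 and Mxra8, Atoh1 to Smtn, Foxp2 and Gfra2, and Gfi1 to St3gal2, Dennd1a and Med31. With 4 points per profile, many genes lie this close. Some of those named are near the floor, where adding 1 CPM shrinks their differences. Nell2 was at 1.66 CPM in the untreated labelled knockout and at 0.19 after AOM/DSS, and Asxl3 at 1.47 and 0.09.

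The only test the design allows is an additive fit of treatment and genotype label over the 4 libraries. It has 1 residual degree of freedom and takes any interaction as spread. With edgeR's quasi-likelihood test, 0 of 18973 genes (0%) had an adjusted p under 0.05 for treatment and 0 (0%) for genotype, with 1148 and 746 genes at an unadjusted p under 0.05. Among the members Atoh1 had the smallest p for treatment (log2 fold change -1.71, adjusted p = 0.789 by edgeR), lower in both treated libraries. Pparg had the smallest for genotype (log2 fold change -1.39, adjusted p = 1 by edgeR), lower in both libraries labelled knockout. With DESeq2, 336 of 18314 genes (1.83%) were called for treatment, 0 of them members, and 263 of 17734 (1.48%) for genotype, 1 of them a member, Ppara (log2 fold change -2.65, adjusted p = 0.0191 by DESeq2). The edgeR value for Ppara was an adjusted p of 1 at a log2 fold change of -2.64, so the call rests on the tool.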

How the data were processed

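Colon RNA of 4 groups was sequenced as 1 library each, extracted with Trizol and prepared with an Ion Proton kit, per the labels' protocols. The authors deposited raw read counts per gene symbol, whole numbers with no normalization. Per the submitters' processing notes, reads were placed on GRCm38 (mm10). No aligner, counter or strand setting is given in the sources used here. Of 44788 gene rows, 27 carried a symbol turned into a date and could not be named, and 0 columns belonged to other samples.

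CPM were computed from the counts with edgeR 4.0.16 (R 4.3.3), whose TMM factors were 0.9915 (WT) and 0.9311 (labelled knockout) untreated, and 0.9473 and 1.1434 after AOM/DSS. Log2 ratios used CPM + 1, which understates differences of low genes, and printed folds are ratios of CPM. Levels between genes were compared per kb of merged exons (GENCODE annotation of GRCm38), from which gene positions also come. Promoter sequences are from RefSeq (GRCm38.p6), which matched 6 of the 9 members. Additive fits used edgeR (quasi-likelihood, filterByExpr, robust) and DESeq2 1.42.0, with Benjamini-Hochberg adjustment at 0.05. Only the edgeR fit was run on simulated data. These were built without interaction, so they cannot show how the fit behaves where the responses of the labels differ. The p-values of both fits do not measure spread between replicates, since there are none. They rest on the 1 residual degree of freedom, which holds any interaction, and on information shared across genes. Intervals treat reads as independent, which PCR copies are not.

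The members, the gene lists, the motifs and the alternatives were chosen with earlier results of these data known. Named genes were the 9 members, the 3 nearest profiles of each, from each related list up to 3 genes with the largest ratio and genes whose role pairs them with a member, and Card9. Others named (Vdr, Vil1, Elf3, Sox9, Creb3l1, Plin2 and genes spelled out as the members of a count) were chosen after their values were seen. A few genes covered by this rule are left out of the text.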

Additional observations from a re-analysis of the deposited data

Results flagged for a closer look

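For 3 factors the WT and the labelled knockout libraries differed in opposite directions after AOM/DSS, with counting intervals that excluded 1 on both sides. The difference of the log2 responses (labelled knockout minus WT) was -3.13 for Ppara, the fatty acid oxidation receptor, -1.46 for Hnf4a and -1.28 for Klf5. In WT, Ppara was 1.18-fold, Hnf4a 1.08-fold and Klf5 1.24-fold higher in the treated library, and in the labelled knockout they were 8.95-fold, 2.55-fold and 1.98-fold lower. These differences were not tested, since each group holds 1 library. The WT direction turned negative for Hnf4a (-0.17) and Ppara (-0.03) when libraries were scaled on pan-epithelial genes, while that of Klf5 stayed positive under every scaling run.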

How the results depend on the processing

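Libraries were also scaled on their totals, on pan-epithelial genes, by DESeq2, by upper quartiles, after thinning, and without genes that take over 1% of a library. Pseudocounts of 0.5 and 5 CPM and a count minimum of 200 or none were tried too. Of 360 member ratios recomputed, 349 kept their sign, and the 11 that changed belong to 5 of 36 ratios, all at most 0.24 in size. Counts of members called lower ran from 3 to 7 (AOM/DSS over untreated) and 3 to 6 (over WT) in the AOM/DSS labelled knockout. With pan-epithelial scaling the members called lower were 1 in WT (Atoh1), 3 in the labelled knockout (Klf4, Ppara and Atoh1), 2 in the untreated labelled knockout (Pparg and Ppara) and 3 after AOM/DSS (Pparg, Ppara and Atoh1). Of all tested genes, pan-epithelial scaling called 7.131% lower after AOM/DSS in WT and 10.69% in the labelled knockout. Between labels it called 5.218% lower untreated and 7.998% lower after AOM/DSS. The untreated count of members was also 2 with library totals and 0 with a pseudocount of 5 CPM. Library totals moved the median of all genes to 0.30 and 0.28 in the pairs that use the AOM/DSS labelled knockout, and pan-epithelial scaling to -0.24, 0.35, -0.20 and 0.42 over the 4 pairs. The share of called genes that were higher in the AOM/DSS labelled knockout than untreated was 47.0%, or 64.1% with library totals and 67.5% with pan-epithelial scaling. The edgeR calls for treatment and genotype went from 0 to 23 and 15 with library totals and to 81 and 62 with no low count filter, and DESeq2 made 336 and 263. The cause was not tested. Against each other library in place of its control, an alternative chosen after seeing the data, the AOM/DSS labelled knockout had 6 members called lower. The share of all genes called lower than in untreated WT was not computed. No paired analysis was possible because each group holds 1 library, and leaving out a library leaves no residual degree of freedom. Depth limits Gfi1, with 167 to 322 counts, and Ppara in the AOM/DSS labelled knockout, with 133.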
